A study of Mus musculus with 19 samples.

Results

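The surfactant production genes described here are Sftpb, Ctsh, Lpcat1 and Lgi3. They were taken by gene name from the lists of translated open reading frames (ORFs) of the series, and the estimated counts of every transcript listed under each name were added up. All 4 genes were found, among 7261 genes that the ORF lists pair with transcripts of the count tables. The question is how much RNA and how many ribosome footprints these genes gave in mouse lung adenocarcinoma (LUAD) organoids against alveolar type 2 (AT2) organoids. Footprints are the stretches of mRNA that a ribosome shields from digestion, and they were collected with the RiboLace method. The 19 samples comprised 4 LUAD and 3 AT2 footprint libraries, 4 LUAD and 3 AT2 RNA libraries, and ORF lists from 3 LUAD and 2 AT2 footprint libraries. Organoids of both kinds carried the C57BL/6 background, spent 48 h on Matrigel-washed plates in a lung organoid medium, and received 100 µM cycloheximide, which halts elongating ribosomes, for 5 min. The labels give no driver mutation, age or sex for either kind. The LUAD ORF libraries carry the letters KP in their titles without an explanation. The series text counts as independent 2 cultures of AT2 organoids and 3 organoids derived from tumours, the numbers of the ORF libraries. For the count libraries nothing says that they came from separate cultures, so p-values there measure only the spread between libraries, which may be technical.

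Pulmonary surfactant is a film of phospholipid and protein that lowers surface tension in the alveolus, and in the healthy lung it is made by AT2 cells. Its phospholipid and hydrophobic proteins are packed into lamellar bodies, lysosome-related organelles that fuse with the cell surface and release their content. Sftpb encodes surfactant protein B, a hydrophobic peptide cut from a larger precursor and needed for the film to spread. Ctsh encodes cathepsin H, a lysosomal cysteine protease that takes part in that maturation. Lpcat1 encodes the lysophosphatidylcholine acyltransferase that remodels phosphatidylcholine into its disaturated surfactant form. Lgi3 encodes a secreted leucine-rich repeat protein that is included as a lamellar body protein.

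On build GRCm38.p6 (mm10) all 4 genes lie on the plus strand. Sftpb (ENSMUSG00000056370.15) spans chr6:72304610-72314373, with 4 paired transcripts of which 2 are annotated as protein coding. Ctsh (ENSMUSG00000032359.14) spans chr9:90054267-90076095, with 4 paired transcripts of which 1 is protein coding. Lpcat1 (ENSMUSG00000021608.15) spans chr13:73467231-73516420, with 5 paired transcripts of which 2 are protein coding. Lgi3 (ENSMUSG00000033595.7) spans chr14:70528547-70538324, with 2 paired transcripts of which 1 is protein coding. No other gene of the RefSeq table overlaps any of these spans. RefSeq promoter windows of the same build, which run from 250 bases before the gene start to 50 bases after it, were matched for 2 of the 4 genes. They are printed 5′ to 3′ because all 4 genes were called lower in LUAD, and the capitals mark matches to GCNCTNNAG, a consensus of the lung transcription factor NKX2-1.
Sftpb, chr6:72304360-72304659, plus strand: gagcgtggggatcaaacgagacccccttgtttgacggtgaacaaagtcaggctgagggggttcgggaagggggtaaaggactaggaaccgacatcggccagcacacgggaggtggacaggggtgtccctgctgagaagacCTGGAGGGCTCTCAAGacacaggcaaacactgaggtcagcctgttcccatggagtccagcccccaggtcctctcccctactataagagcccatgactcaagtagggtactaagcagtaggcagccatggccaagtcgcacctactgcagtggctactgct
Lpcat1, chr13:73466981-73467280, plus strand: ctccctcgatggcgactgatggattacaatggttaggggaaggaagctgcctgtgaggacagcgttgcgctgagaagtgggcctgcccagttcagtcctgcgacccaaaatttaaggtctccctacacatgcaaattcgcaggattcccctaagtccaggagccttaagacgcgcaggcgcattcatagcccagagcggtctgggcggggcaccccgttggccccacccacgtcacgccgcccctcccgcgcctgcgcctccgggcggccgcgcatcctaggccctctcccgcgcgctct
The Sftpb window holds 2 matches to GCNCTNNAG, one on the minus strand at bases 141 to 149 and one on the plus strand at bases 148 to 156, which overlap. The Lpcat1 window holds no match to it. Both strands were searched, and 17.5% of 32817 mouse promoter windows of 300 bases hold a match. Neither window holds CAAGTG, an NKX2-1 core present in 13.6% of the windows, or TGTTTAC, a forkhead core present in 3.6%. GC content was 58.3% in the Sftpb window and 64.0% in the Lpcat1 window, against a median of 52.7% over all windows. A match is a string of letters and was not tested as a binding site.

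Total estimated counts were 4803129 to 14249573 in LUAD and 3030290 to 3834358 in AT2 footprint libraries, and 27181932 to 33203742 in LUAD and 4122819 to 10233520 in AT2 RNA libraries, of which 65.0% to 70.0% fell on paired transcripts. AT2 footprint library 1 stood apart, since Mettl26 took 52.1% of its paired counts, against at most 4.14% for the top gene of any other footprint library. Its TMM factor was 0.538, so its scaled counts are raised against those of the other libraries. Within each assay the libraries also fell into 2 sets, in which LUAD and AT2 libraries deviated together from their group means. Of 14 AT2 markers 5 were paired, and their summed CPM (counts over the library's total on paired transcripts, scaled with edgeR's TMM factors) were 184 to 220 in LUAD against 1015 to 1163 in AT2 footprints, and 148 to 171 CPM in LUAD against 1130 to 1520 CPM in AT2 RNA. Among these 5 markers, which include Sftpb itself, 0 were called higher and 3 lower in LUAD in each assay. Sftpd gave most of the AT2 sums. Etv5 was called in neither assay, at 15.4 to 24.1 CPM in LUAD against 10.2 to 18.6 CPM in AT2 footprints. Its RNA overlapped as well, at 13.3 to 22.0 CPM in LUAD against 20.8 to 36.9 CPM in AT2. Sftpb and Slc34a2 were at 0 in LUAD footprints. Slc34a2 was also at 0 in the RNA of both kinds and in AT2 footprint libraries 2 and 3, on its paired transcripts. Sftpc, the most used AT2 marker, was not among the paired genes and was not analysed here, nor were Sftpa1, Napsa and Lamp3. Genes entered only through the ORF lists, which named 5212, 3646 and 2613 genes in the LUAD libraries. The AT2 lists named 1558 and 2165 genes. How this shaped the set of genes was not tested. Of 12 alveolar type 1 (AT1) markers 7 were paired, summing to 203 to 325 CPM in LUAD against 948 to 4783 CPM in AT2 footprints, and to 308 to 347 CPM in LUAD against 2578 to 6673 CPM in AT2 RNA, with Ager at 0 in all LUAD RNA libraries. Of these 7 markers, 0 were called higher and 3 lower in LUAD footprints, and 1 higher and 4 lower in RNA. Cav1 went against the sums, at 41.6 to 89.3 CPM in LUAD against 2.27 to 23.2 CPM in AT2 footprints. Its RNA was at 87.0 to 147 CPM in LUAD against 22.8 to 48.5 CPM in AT2. Of 20 macrophage and leukocyte markers 2 were paired (Mrc1 and Cd14), and they summed to 77.6 to 101 CPM in LUAD against 8.68 to 8.89 CPM in AT2 footprints, and to 150 to 200 CPM in LUAD against 6.78 to 19.4 CPM in AT2 RNA. Of 6 basal markers 1 was paired (Lamb3), at 340 to 412 CPM in LUAD against 707 to 1152 CPM in AT2 footprints, and at 144 to 197 CPM in LUAD against 229 to 948 CPM in AT2 RNA. The 2 paired fibroblast markers (Bgn and Fn1) summed to 1194 to 2371 CPM in LUAD against 2770 to 3401 CPM in AT2 footprints, and overlapped in RNA at 337 to 688 CPM in LUAD against 191 to 414 CPM in AT2. Of these, Bgn was called higher in LUAD in both assays (adjusted p = 0.000691 in footprints and 0.000125 in RNA, edgeR), and Fn1 passed the test in neither. The ciliated marker Tubb4b overlapped in footprints and was called higher in RNA, at 1029 to 1895 CPM in LUAD against 479 to 929 CPM in AT2. The neuroendocrine marker Uchl1 was at 7.20 to 12.2 CPM in LUAD against 12.8 to 32.0 CPM in AT2 footprints, overlapped in RNA, and passed the test in neither assay. No club or endothelial marker was paired. The part of these other cell types in the results was not tested, and in such bulk libraries fewer cells of a type and less RNA per cell cannot be told apart.

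All 4 surfactant production genes were lower in LUAD than in AT2 organoids, in footprints and in RNA, and in neither assay did any LUAD library reach the lowest AT2 library. Sftpb and Lgi3 were at or next to 0 in LUAD, while Ctsh and Lpcat1 kept a measurable level there. All 4 passed the test in both assays (adjusted p under 0.05, edgeR's quasi-likelihood test). Of all genes tested, 21.2% of 6811 in footprints and 37.1% of 6937 in RNA were called in either direction, and 11.8% in footprints and 18.1% in RNA were called lower. LUAD libraries all lay below AT2 libraries for 17.3% of genes in footprints and 21.1% in RNA. All 4 genes also passed the filter on low counts in both assays. Sftpb and Lgi3 passed it through the AT2 libraries alone, so for these 2 genes a difference was built into being tested.

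**Figure D1:**
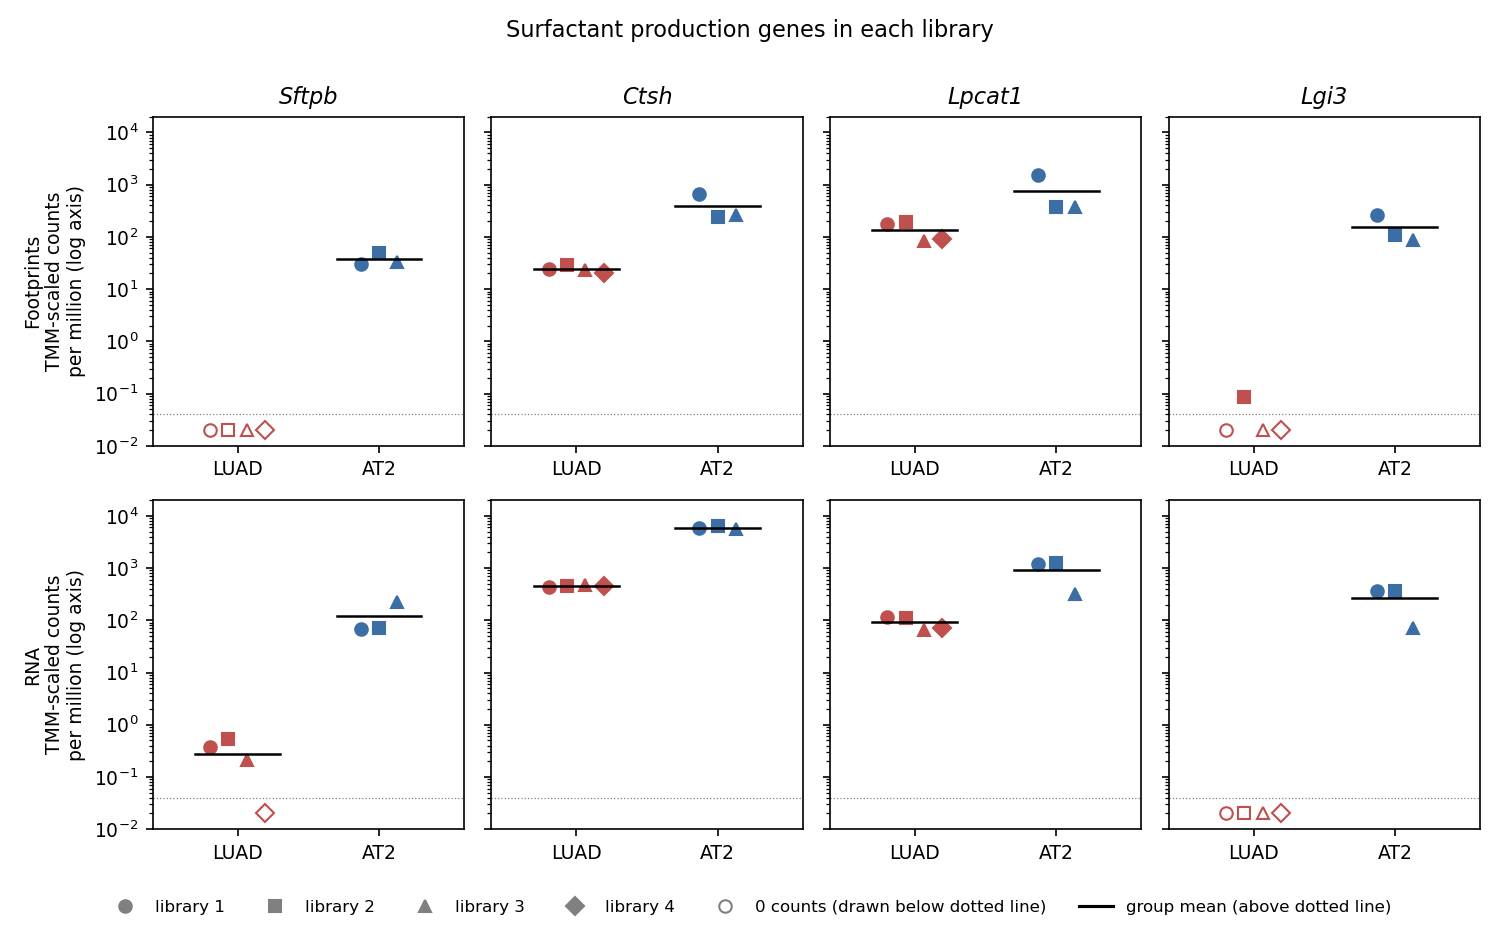
CPM on TMM-scaled library sizes (vertical log axis) of the 4 genes in each LUAD and AT2 library, footprints above and RNA below. Symbols give the library number, open symbols are libraries with 0 counts, and the bar is the group mean. In all 8 panels every LUAD library lies below every AT2 library, and Sftpb footprints and Lgi3 RNA are at 0 in all 4 LUAD libraries.

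For Sftpb, the surfactant protein itself, no footprint was counted in any of the 4 LUAD libraries, against 30.2, 49.6 and 33.7 CPM (34, 120 and 89 counts) in the 3 AT2 libraries, a mean of 37.8 ± 10.3 CPM (SD, n = 3). Over the 4 LUAD libraries a count of 0 allows up to 0.0823 CPM, from a floor of 3 counts over the group, so with the AT2 counts pooled over their libraries, footprints were at least 477-fold lower in LUAD (edgeR adjusted p = 0.000836). Such limits hold for the pooled AT2 counts, and against the lowest AT2 library alone they are smaller. They and the intervals below cover counting error only. Sftpb RNA was 0.372, 0.538, 0.215 and 0 CPM in LUAD libraries 1 to 4, against 68.5, 70.3 and 228 CPM in AT2 libraries 1 to 3. The means were 0.281 ± 0.229 CPM in LUAD (SD, n = 4) and 122 ± 91.4 CPM in AT2 (SD, n = 3). Its LUAD RNA rested on 26 counts in all, and AT2 RNA library 3 was the high one of its group. On summed counts RNA was 306-fold lower in LUAD (95% interval 208 to 470), and the fitted log2 fold change was -8.63 ± 0.77 (SE, adjusted p = 0.000184). Without AT2 RNA library 3 the log2 fold change was -7.83 (adjusted p = 0.000107). Within the first library set RNA averaged 0.455 CPM in LUAD against 69.4 CPM in AT2, and within the second 0.108 CPM in LUAD against 228 CPM in AT2.

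Ctsh, the protease of the group, was the most abundant of the 4 in RNA and fell by a like factor in both assays. Its footprints were 24.1, 29.6, 23.7 and 20.6 CPM in LUAD libraries 1 to 4, against 655, 243 and 258 CPM in AT2 libraries 1 to 3. The LUAD libraries lay close together and far below the lowest AT2 library, and AT2 library 1 was the high one. The means were 24.5 ± 3.72 CPM in LUAD (SD, n = 4) and 385 ± 234 CPM in AT2 (SD, n = 3), with a log2 fold change of -3.97 ± 0.39 (SE, adjusted p = 0.000587). As CPM of all transcript counts, with no TMM scaling, Ctsh footprints were 15.4 to 24.4 in the LUAD libraries, against 243, 169 and 178 in AT2 libraries 1 to 3. Without AT2 footprint library 1 the log2 fold change was -3.36 (adjusted p = 5.88e-05). Ctsh RNA was 429, 456, 464 and 452 CPM in LUAD and 5753, 6379 and 5709 CPM in AT2, so that replicates of each kind differed little. The means were 450 ± 15.3 CPM in LUAD (SD, n = 4) and 5947 ± 375 CPM in AT2 (SD, n = 3), with a log2 fold change of -3.72 ± 0.13 (SE, adjusted p = 4.91e-06). Within the library sets the log2 ratio of mean CPM was -4.61 and -3.50 in footprints, and -3.78 and -3.64 in RNA.

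Lpcat1, the phospholipid enzyme, kept the highest footprint CPM of the 4 in LUAD, with no account of length, and showed the smallest change. Its footprints were 180, 190, 84.9 and 90.4 CPM in LUAD libraries 1 to 4, against 1533, 367 and 367 CPM in AT2 libraries 1 to 3. LUAD libraries 1 and 2 stood above LUAD libraries 3 and 4, and AT2 library 1 stood far above the other AT2 libraries. The means were 136 ± 56.6 CPM in LUAD (SD, n = 4) and 756 ± 673 CPM in AT2 (SD, n = 3), with a log2 fold change of -2.47 ± 0.58 (SE, adjusted p = 0.0204). Without AT2 footprint library 1 the change was smaller, at -1.44 (adjusted p = 0.0202). It missed the threshold without LUAD footprint library 3 (-2.28, adjusted p = 0.0598) or LUAD footprint library 4 (-2.30, adjusted p = 0.0600), and the deposited TPM with a pseudocount of 0.1 gave -1.68 (adjusted p = 0.0619, limma). Lpcat1 RNA was 117, 112, 64.3 and 71.9 CPM in LUAD against 1175, 1244 and 316 CPM in AT2. Here AT2 library 3 was the low one, still above every LUAD library. The means were 91.3 ± 27.0 CPM in LUAD (SD, n = 4) and 911 ± 517 CPM in AT2 (SD, n = 3), with a log2 fold change of -3.32 ± 0.47 (SE, adjusted p = 0.00127). Within the library sets the log2 ratio of mean CPM was -3.05 and -2.07 in footprints, and -3.40 and -2.21 in RNA.

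Lgi3 was at or next to 0 in LUAD in both assays. In LUAD footprints 1 count was found, in library 2 (0.0855 CPM), and 0 counts in libraries 1, 3 and 4, against 267, 107 and 86.2 CPM in AT2 libraries 1 to 3. The AT2 mean was 153 ± 98.9 CPM in footprints and 267 ± 170 CPM in RNA (SD, n = 3 each). The single LUAD count lay on a transcript annotated as lncRNA, and none lay on the coding transcript. On summed counts footprints were 4628-fold lower in LUAD, with an interval as wide as 828 to 183039 because of that 1 count (adjusted p = 0.000193). Lgi3 RNA was at 0 counts in all 4 LUAD libraries, against 362, 368 and 70.6 CPM (5307 counts in all) in AT2 libraries 1 to 3. With the AT2 counts pooled over their libraries, RNA was therefore at least 9022-fold lower in LUAD, from a floor of 3 counts over the group (adjusted p = 0.000820). That floor is 0.0354 CPM, and against AT2 library 3 alone, at 70.6 CPM, the limit is smaller. AT2 RNA library 3 was again the low one, as for Lpcat1. Within the second library set, which holds that library, LUAD RNA was at 0 against 70.6 CPM in AT2.

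The AT2 RNA libraries thus did not order the 4 genes alike. Relative to libraries 1 and 2, library 3 was lower for Lpcat1 and Lgi3, higher for Sftpb and much the same for Ctsh. The 7 AT1 markers summed to 6234 and 6673 CPM in AT2 RNA libraries 1 and 2 and to 2578 CPM in library 3. In AT2 footprints these markers summed to 4783 CPM in library 1, which was also the high library for Ctsh, Lpcat1 and Lgi3, and to 998 and 948 CPM in libraries 2 and 3. This is the library in which Mettl26 took most counts and scaled counts are raised (TMM factor 0.538). As CPM of all transcript counts, with no TMM scaling, it was also the highest AT2 footprint library for these genes. Lpcat1 was then at 569, 254 and 253 in libraries 1 to 3, and Lgi3 at 99.0, 74.0 and 59.5. The AT1 markers did not rise alike in library 1. In libraries 1 to 3 Vegfa was at 1674, 28.9 and 11.7 CPM, Emp2 at 1780, 465 and 438 CPM, and Cav1 at 23.1, 23.2 and 2.27 CPM. The part of AT1 marker expression in these differences was not tested.

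Levels were compared between genes per transcript length, as deposited TPM summed to genes. In AT2 RNA, Ctsh led with 3361, 3641 and 2575 TPM, ranks 22, 19 and 30 among the 7261 genes. Lpcat1 followed with 259, 275 and 72.1 TPM, then Lgi3 with 93.0, 93.7 and 13.7 TPM and Sftpb with 39.6, 40.4 and 99.6 TPM. The last 3 genes overlapped in their spread, since library 3 put Sftpb above both Lpcat1 and Lgi3. In AT2 footprints the order differed, with Lpcat1 at 195, 130 and 150 TPM and Ctsh at 129, 108 and 109 TPM, whose nearest values almost met. Sftpb at 6.83, 31.7 and 20.4 TPM and Lgi3 at 21.5, 24.3 and 18.3 TPM came after them and overlapped each other. In LUAD RNA, Ctsh was at 202 to 246 TPM and Lpcat1 at 10.8 to 24.0 TPM, while in LUAD footprints Lpcat1 was at 32.0 to 79.0 TPM and Ctsh at 11.6 to 21.0 TPM. On deposited TPM the order of these 2 genes was thus the opposite in the 2 assays, in LUAD as in AT2, in every library. TPM counts the whole transcript, and the order of footprints was not the same in the ORF lists. In the ORF lists, whose RPKM is per ORF length, the full Ctsh coding sequence lay above that of Lpcat1. The values were 87.4 against 14.5 RPKM in AT2 ORF library 2, and 30.8 against 10.96 RPKM in LUAD ORF library 2. P-sites there, with no account of length, were 288 for Ctsh against 76 for Lpcat1 in AT2, and 198 against 104 in LUAD. Footprint CPM, also with no account of length, was higher for Lpcat1 in every library. Why the ORF lists and the estimated counts differ was not tested.

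**Figure D2:**
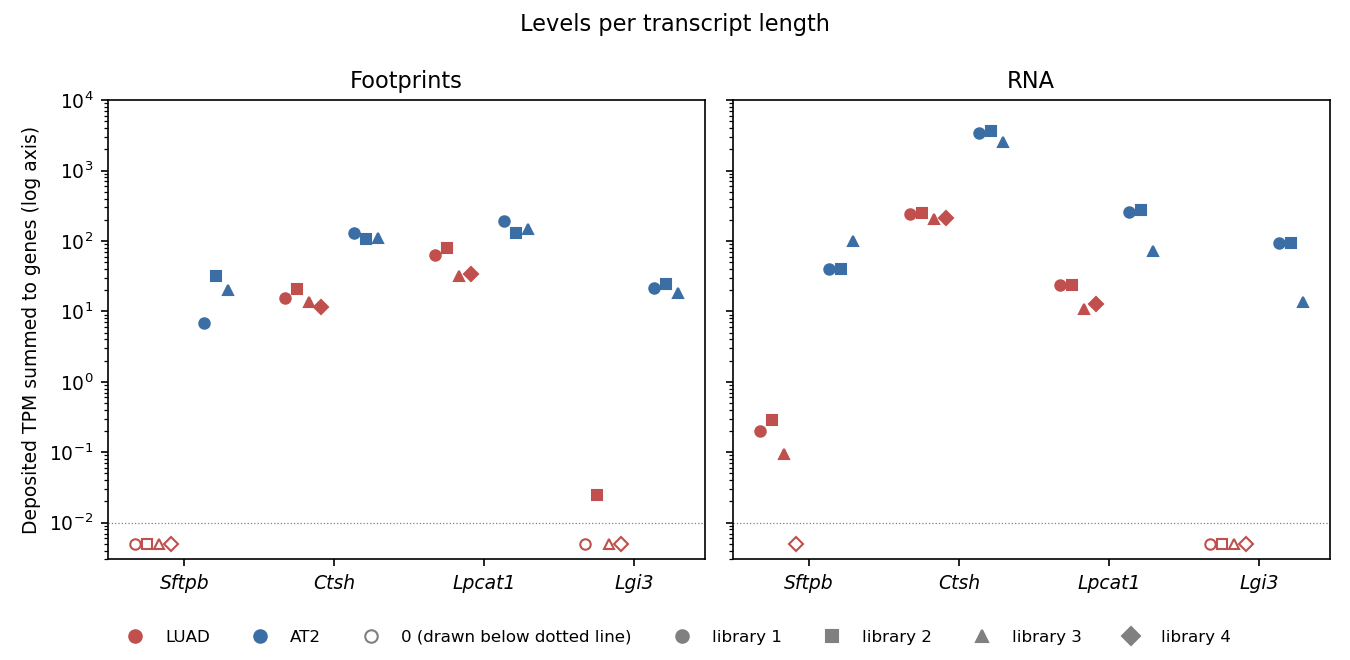
Deposited TPM summed to genes (vertical log axis) of the 4 genes in each library, footprints on the left and RNA on the right, with LUAD left of AT2 for each gene. Open symbols are libraries at 0. Ctsh tops the RNA panel at 2575 to 3641 TPM in AT2, while in AT2 footprints Lpcat1 at 130 to 195 TPM lies level with or above it.

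Footprints relative to RNA were compared in a model over all 14 count libraries, to ask whether the loss of footprints went beyond the loss of RNA. For Ctsh the ratio of mean footprint to mean RNA CPM was 0.0544 in LUAD and 0.0648 in AT2. The log2 fold change of footprints per RNA was -0.16 ± 0.40 (SE, interval -1.01 to 0.70, adjusted p = 0.903), and it was 0.41 without AT2 footprint library 1 (adjusted p = 0.256). With only the coding transcript counted, Ctsh footprints per RNA were lower in LUAD (log2 fold change -1.96, adjusted p = 0.0183). That value rests on how the estimates divide Ctsh footprints between overlapping transcripts, which is given below as a description. For Lpcat1 the ratio was 1.495 in LUAD and 0.829 in AT2, and the log2 fold change was 0.94 ± 0.78 (SE, interval -0.73 to 2.61, adjusted p = 0.640). Without AT2 footprint library 1 the Lpcat1 value was 1.94 (adjusted p = 0.103). With all paired transcripts counted, neither gene thus passed the test, with intervals that leave room for changes in either direction. Across all genes 0.706% of 7078 tested were called for footprints per RNA, 0.268% higher and 0.438% lower in LUAD. Sftpb and Lgi3 get no such value, because each had 0 LUAD counts in an assay.

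Within AT2 organoids, where all 4 genes were expressed, Ctsh gave few footprints for its RNA, with a log2 fold change of footprints over RNA of -4.01 ± 0.34 (SE, interval -4.74 to -3.29, adjusted p = 2.45e-06). In the same fit 42.6% of all genes were called, and 21.1% were lower in footprints. Without AT2 footprint library 1 the Ctsh value was -4.64 (adjusted p = 5.14e-08). Sftpb was lower in footprints by -1.73 ± 0.64 (SE, adjusted p = 0.0498), a call that was lost without AT2 RNA library 3 (-0.92, adjusted p = 0.286) and without any single AT2 footprint library (-1.98 to -1.60, adjusted p up to 0.117). It was also lost, by small margins, without LUAD footprint library 2, 3 or 4 or LUAD RNA library 1 or 3 (adjusted p up to 0.0625). Lpcat1 (-0.34 ± 0.59, adjusted p = 0.670) and Lgi3 (-0.88 ± 0.57, adjusted p = 0.242) did not pass the test, and without AT2 footprint library 1 they were at -1.40 (adjusted p = 0.0510) and -1.56 (adjusted p = 0.0556). Lgi3 passed it without AT2 RNA library 3 (-1.33, adjusted p = 0.0319). Footprint CPM over RNA CPM within AT2 was 0.310 for Sftpb and 0.574 for Lgi3.

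The deposited estimates also divide each gene's counts among its transcripts, and that division differed between assays and organoids. It rests on the short stretches that set overlapping transcripts apart, so it is given as a description. Ctsh RNA was divided alike in both kinds, with 66.4% to 74.2% on the coding transcript ENSMUST00000034915.14 in LUAD and 64.0% to 75.4% in AT2, and most of the rest on ENSMUST00000123320.7, annotated for nonsense-mediated decay. Ctsh footprints were not. In LUAD 72.4% to 87.0% of them were given to the nonsense-mediated decay transcript and 8.8% to 23.0% to the coding one. In AT2 libraries 2 and 3 the coding transcript held 95.8% and 94.9%, but in AT2 library 1 it held 20.1%, near the LUAD libraries. Sftpb RNA was given wholly to the coding transcript ENSMUST00000183018.7 in every library with a count. Sftpb footprints of AT2 library 1 were given at 97.5% to another coding transcript, ENSMUST00000070437.13, and those of libraries 2 and 3 at 88.2% and 100.0% to the nonsense-mediated decay transcript ENSMUST00000183278.7. Lpcat1 RNA sat mostly on ENSMUST00000022099.14 (49.5% to 100.0% in LUAD, 69.9% to 99.8% in AT2), except in LUAD library 3, where ENSMUST00000123766.7, annotated for nonsense-mediated decay, held 50.5%. Its footprints sat mostly on the other coding transcript, ENSMUST00000223060.1 (57.9% to 72.0% in LUAD, 54.1% to 83.4% in AT2). Lgi3 in AT2 sat on its coding transcript in both assays, at 93.0% or more in every library.

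**Figure D3:**
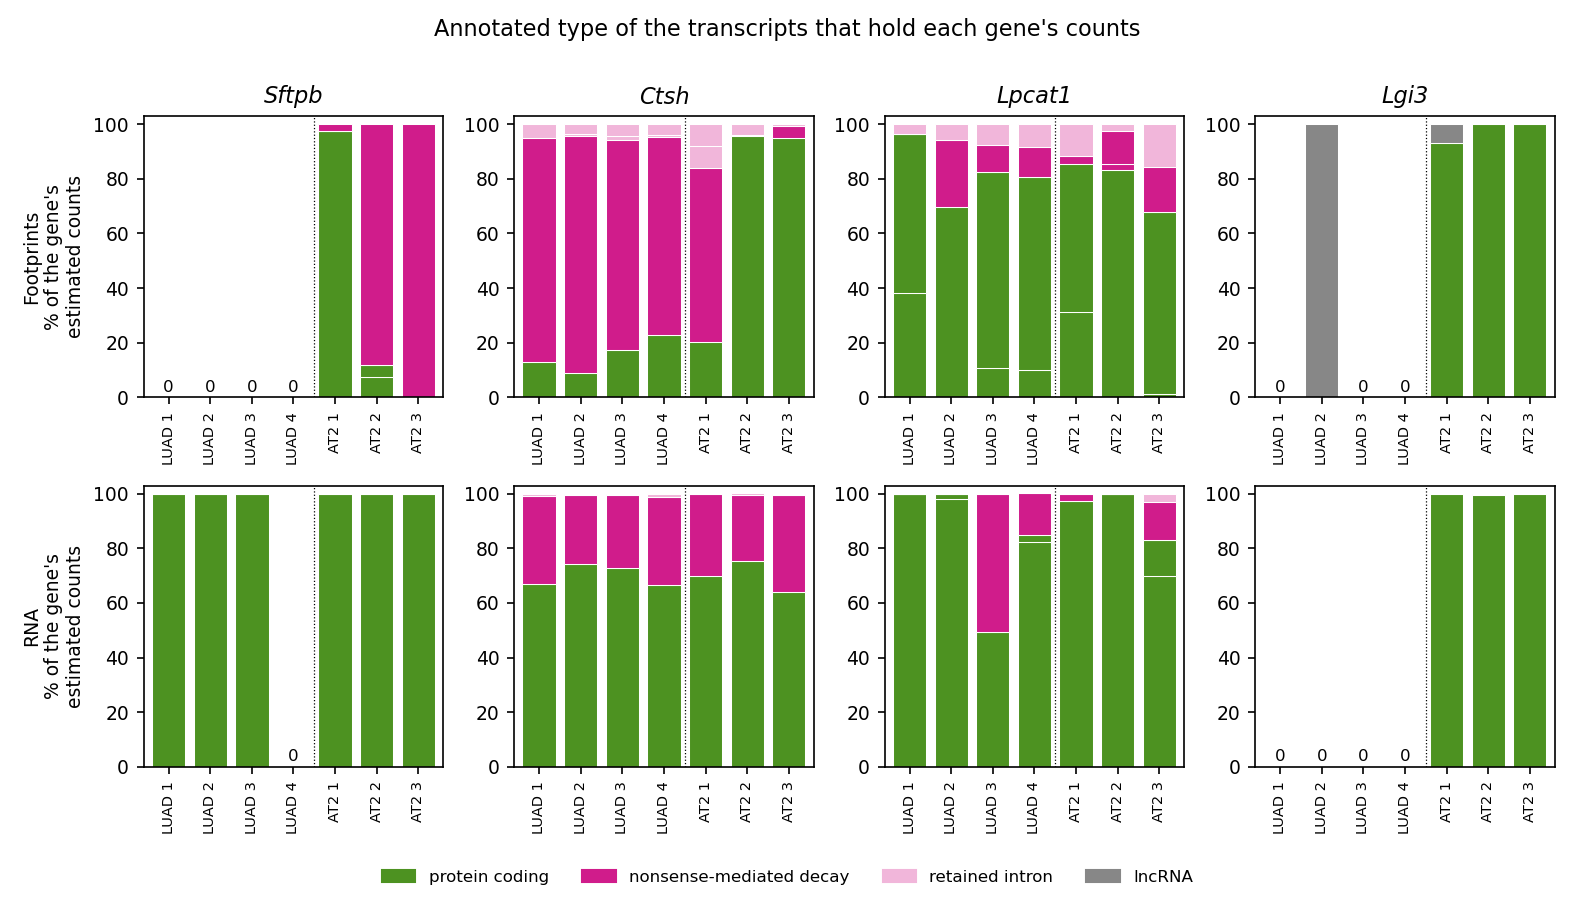
Share of each gene's estimated counts (vertical axis, percent) by annotated transcript type in each library, footprints above and RNA below, LUAD libraries left of the dotted line and AT2 libraries right of it. White lines part transcripts, and 0 marks a library with no count of the gene. Ctsh footprints lie mainly on the nonsense-mediated decay transcript in all 4 LUAD libraries and AT2 library 1, and on the coding transcript in AT2 libraries 2 and 3.

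The ORF lists give, for each library, the reading frames in which ribosomes were called, with P-sites (the codon position of the ribosome) counted by frame. The 4 genes had 35 entries for 18 different ORFs, and ORFs that overlap share P-sites. Sftpb was listed in 0 of 3 LUAD and 2 of 2 AT2 libraries, Lgi3 in 0 of 3 LUAD and 1 of 2 AT2 libraries, Ctsh in 2 of 3 LUAD and 2 of 2 AT2 libraries, and Lpcat1 in 3 of 3 LUAD and 1 of 2 AT2 libraries. A list holds only ORFs called in that library, and with 3 against 2 libraries no test was made. The totals behind the deposited RPKM came to 11.82, 2.734 and 3.076 M reads in LUAD and 2.697 and 1.419 M reads in AT2, so the lists differ in depth.

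For Sftpb, AT2 library 1 listed the full coding sequence of 376 codons (chr6:72304625-72312932) with 47 in-frame P-sites of 114, or 41.2% (exact 95% interval 32.1% to 50.8%), at 15.5 RPKM. That interval takes in an equal share of the 3 frames. The same library listed a shorter Sftpb ORF of 241 codons, with 49.3% in frame (36.8% to 61.8%). AT2 library 2 listed only an internal ORF of 37 codons (chr6:72305058-72305679) with 7 in-frame P-sites of 8. For Ctsh, the full coding sequence of 333 codons (chr9:90054550-90075757) reached 18.0 and 30.8 RPKM in LUAD libraries 1 and 2, against 87.4 RPKM in AT2 library 2. In-frame P-sites on it were 53.8% (48.7% to 58.8%) and 42.4% (35.4% to 49.6%) in those LUAD libraries, against 43.1% (37.3% to 49.0%) in AT2 library 2. AT2 library 1 listed Ctsh through an ORF of 204 codons on a retained-intron transcript alone, at 69.1 RPKM. LUAD library 1 also listed an ORF of 263 codons on the nonsense-mediated decay transcript, with 58.9% of 263 P-sites in frame (52.7% to 64.9%). It is typed as a downstream ORF that overlaps the annotated ORF of that transcript. It ends at the same base as the full coding sequence. For Lpcat1, the coding sequence of 534 codons (chr13:73467383-73514538) was at 10.96 and 9.945 RPKM in LUAD libraries 2 and 3, against 14.5 RPKM in AT2 library 2. In-frame shares there were 46.2% (36.3% to 56.2%) and 49.5% (39.3% to 59.7%) in LUAD, against 43.4% (32.1% to 55.3%) in AT2. LUAD library 1, the deepest, listed for Lpcat1 only an ORF of 331 codons, at 7.156 RPKM. For Lgi3, AT2 library 1 listed the coding sequence of 548 codons (chr14:70531065-70537034) with 16 in-frame P-sites of 31, at 3.61 RPKM. The interval of its in-frame share (33.1% to 69.8%) and that of the Lpcat1 coding sequence in AT2 also take in an equal share of the frames. Over all annotated ORFs the median in-frame share was at most 50.9% in a LUAD library and 52.6% and 53.3% in the AT2 libraries.

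The other genes of surfactant production were read from 5 lists of 81 genes in all: surfactant proteins, their processing, lamellar bodies and secretion, phospholipid synthesis and recycling, and regulators of surfactant genes. Of these 81 genes 60 were paired and 59 tested. Leaving out the 4 genes above, 1 gene rose and 10 fell in LUAD footprints of 55 tested, with a median log2 fold change of -0.33 against -0.02 over all genes tested. In RNA, 4 rose and 19 fell of 55, with a median of -0.50 against 0.04 over all genes. Among all genes tested, 9.46% rose and 11.8% fell in footprints, and 19.1% rose and 18.1% fell in RNA. The counts of genes that rose were small and moved when a library was left out. All 59 counted, they were 1 in footprints, 2 without AT2 footprint library 1 or 2 and 0 without LUAD footprint library 2, 3 or 4, and in RNA 4, 2 without AT2 library 1 or LUAD library 2 and 7 without AT2 library 3. For footprints per RNA, edgeR called 0 of the 59 genes, with 9 at an unadjusted p under 0.05, and DESeq2 called 3 (Cept1, Pcyt1a and Scd1).

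Of the surfactant proteins, Sftpd, a collectin of alveolar defence, was the only one tested beside Sftpb, and it fell to 95.2 ± 22.6 CPM in LUAD footprints against 818 ± 143 CPM in AT2 (SD, n = 4 and 3, log2 fold change -3.10 ± 0.25, adjusted p = 0.000357). Its RNA was 105 ± 18.6 CPM in LUAD against 1046 ± 261 CPM in AT2 (log2 fold change -3.31, adjusted p = 8.06e-05). Of the lamellar body and secretion genes without Lgi3, 1 rose and 3 fell in footprints (9.46% and 11.8% of all genes) and 1 rose and 7 fell in RNA (19.1% and 18.1% of all genes), of 16 tested. Abca3, the transporter that loads phospholipid into lamellar bodies, fell to 88.8 ± 19.2 CPM in LUAD footprints against 234 ± 72.2 CPM in AT2, a log2 fold change of -1.40 (adjusted p = 0.00783), and its RNA had one of -2.40 (adjusted p = 0.000392). Atp11a, a phospholipid flippase, had log2 fold changes of -5.01 in footprints (-3.40 without AT2 library 1, -5.92 without LUAD library 2) and -5.91 in RNA, with RNA at 2.38 ± 1.30 CPM in LUAD against 143 ± 51.5 CPM in AT2. Ap3d1, a subunit of the adaptor complex that sorts cargo to lysosome-related organelles, fell by 1.14 on the log2 scale in footprints. Vamp2, a vesicle fusion protein, fell by 1.68 on that scale in RNA, to 11.9 CPM in LUAD against 38.2 CPM in AT2. Anxa7, an annexin that promotes membrane fusion, rose by 0.70 in footprints and 0.67 in RNA on the log2 scale. Its call in footprints was lost without LUAD footprint library 2, 3 or 4 (adjusted p = 0.0508 to 0.0599).

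Of the phospholipid genes without Lpcat1, 0 rose and 4 fell in footprints (9.46% and 11.8% of all genes) and 1 rose and 7 fell in RNA (19.1% and 18.1% of all genes), of 23 tested. Scd1, the stearoyl-CoA desaturase, fell to 258 ± 25.3 CPM in LUAD footprints against 1054 ± 183 CPM in AT2 (SD, n = 4 and 3, log2 fold change -2.03, adjusted p = 0.000559), and its RNA had a log2 fold change of -3.09. Elovl1, an elongase of very long fatty acids, fell by 1.29 on the log2 scale in footprints, and Lpcat3, an acyltransferase that favours polyunsaturated chains, fell by 0.97. The Lpcat3 call was lost without AT2 footprint library 2 or LUAD footprint library 1, 2 or 3 (adjusted p = 0.0509 to 0.0666). On a scaling by all transcripts Lpcat3 (-0.59, adjusted p = 0.180) and Elovl1 (-0.90, adjusted p = 0.0559) both missed the threshold. In RNA, Cds1, which makes CDP-diacylglycerol for phosphatidylglycerol and phosphatidylinositol, fell by 2.46, and Pcyt1a, the rate-limiting enzyme of phosphatidylcholine synthesis, fell by 2.37. Chka, the choline kinase that acts before it, rose by 0.83 in RNA, a call lost without AT2 RNA library 1 or LUAD RNA library 1 or 2 (adjusted p = 0.0507 to 0.0726). On deposited TPM with a pseudocount of 1, the footprint calls of Scd1 (-1.02), Abca3 (-0.74), Ap3d1 (-0.43), Elovl1 (-0.57) and Lpcat3 (-0.38) missed the threshold (adjusted p = 0.258 to 0.639, limma).

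Of the regulators, 0 rose and 2 fell in footprints (9.46% and 11.8% of all genes) and 2 rose and 4 fell in RNA (19.1% and 18.1% of all genes), of 15 tested. Nkx2-1, the lung lineage factor known to activate surfactant genes, was at 0.127 ± 0.254 CPM in LUAD footprints against 185 ± 184 CPM in AT2 (SD, n = 4 and 3, adjusted p = 0.000648), and at 0.115 ± 0.179 CPM in LUAD RNA against 362 ± 148 CPM in AT2 (adjusted p = 5.55e-05). Its fitted log2 fold change, which depends on the prior count, was -11.20 in footprints (-10.04 without AT2 library 1, -13.19 without LUAD library 1) and -11.61 in RNA (-13.18 without LUAD library 3). Like Sftpb and Lgi3, Nkx2-1 passed the filter on low counts through the AT2 libraries alone, so a difference was built into its being tested. Foxa2, a forkhead factor of lung endoderm, fell to 13.8 ± 2.16 CPM in LUAD RNA against 163 ± 19.6 CPM in AT2 (log2 fold change -3.56, adjusted p = 2.55e-05). Gata6, a GATA factor of lung epithelium, had log2 fold changes of -1.52 in footprints (adjusted p = 0.0338) and -0.96 in RNA (adjusted p = 0.00999). Its footprint value was -0.87 without AT2 library 1, and its footprint call was lost without any one LUAD footprint library (adjusted p = 0.0659 to 0.0945). Cebpd, a C/EBP factor induced by glucocorticoid, rose by 2.40 in RNA on the log2 scale, to 35.8 CPM in LUAD against 6.76 CPM in AT2. Klf5, a Krüppel-like factor of lung epithelium, rose by 0.61, a call lost without AT2 RNA library 1 or LUAD RNA library 1, 2 or 4 (adjusted p = 0.0517 to 0.0640).

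**Figure D4:**
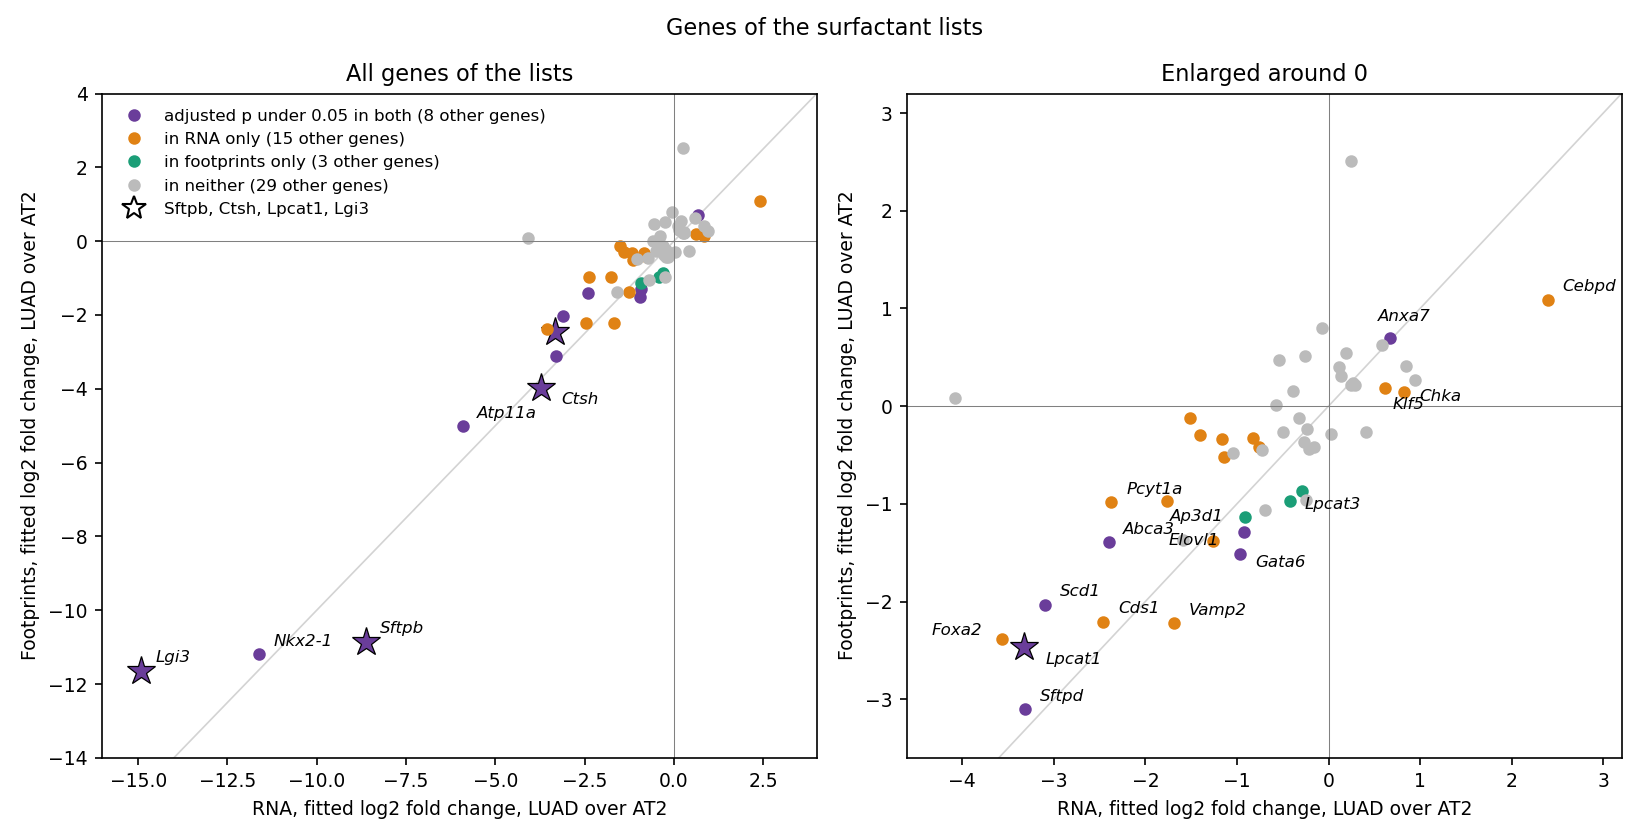
Fitted log2 fold changes, LUAD over AT2, in RNA (horizontal axis) and footprints (vertical axis) for the 59 tested genes of the 5 surfactant lists, with an enlargement around 0 on the right. Stars are Sftpb, Ctsh, Lpcat1 and Lgi3, colours give the assays with an adjusted p under 0.05, and the grey line marks equal change. The 4 starred genes and 8 others passed in both assays, 15 in RNA alone and 3 in footprints alone; positions near 0 counts, such as those of Lgi3, Nkx2-1 and Sftpb, depend on the prior count of the fit.

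Over the 14 count libraries, the genes whose log2 CPM ran most like each member's among 5772 candidates were as follows. For Sftpb they were Bex1 (Pearson's r 0.980), Fam3c (0.979) and Serpinb9b (0.978), and for Ctsh they were Slc48a1 (0.984), Ctsd (0.983) and St3gal4 (0.981). Ctsd encodes cathepsin D, another lysosomal protease. For Lpcat1 they were Slc22a23 (0.982), Emp2 (0.981) and Itgb6 (0.976), of which Emp2 is also among the AT1 markers. For Lgi3 they were Rps4l (0.999), Dpp4 (0.998) and Scnn1g (0.997), where Rps4l resembles other ribosomal protein S4 copies and its counts are uncertain. Among the 4 genes themselves, r was 0.95 for Lgi3 and Sftpb, 0.93 for Lgi3 and Lpcat1, 0.82 for Lpcat1 and Sftpb, 0.75 for Ctsh and Sftpb, 0.69 for Ctsh and Lgi3 and 0.58 for Ctsh and Lpcat1. These correlations describe points that share libraries, assay and organoid kind, and any gene that is low in LUAD correlates with the others.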

How the data were processed

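The submitters' processing notes name kallisto and build mm10, without their roles. The authors deposited, per the file headers, estimated counts and TPM for 118489 transcripts in each of 14 libraries. The deposited ORF lists hold P-site counts by frame, RPKM, and a p-value per ORF, none above 0.05. No source used here names the ORF caller. The labels give the RNA libraries the same extraction text as the footprint libraries. ORF lists paired 22509 transcripts with 7261 genes. Estimated counts were summed to genes, rounded to whole numbers and tested with edgeR 4.0.16 in R 4.3.3 (TMM, filterByExpr, robust quasi-likelihood test, Benjamini-Hochberg over all genes tested, threshold 0.05). LUAD was set against AT2 in footprints, in RNA, and in footprints per RNA as the interaction over 14 libraries, and footprints against RNA within AT2 in the same fit. The method was tested on simulated counts drawn from its own fitted model, without the library sets. That test cannot show how the method behaves with such sets. DESeq2 1.42.0, limma 3.58.1 on log2(TPM + 1) and log2(TPM + 0.1), and the other alternatives in the closing section were also run. No 2 libraries of a group agreed within sampling noise. Deviations from the group means correlated between RNA libraries that share a number (r 0.27 to 0.36), as did other pairs of the same library set (up to 0.37), so the numbers pair the RNA libraries by this check but cannot be told from the sets. The library sets were found from these correlations after seeing the data. The genes and lists were chosen with earlier results of these data known. Named genes of a list are up to 3 per direction and comparison with the largest change past the test and a mean of at least 50 counts in the higher group. The most alike genes are the 3 with the highest r of log2(CPM + 1) among genes with at least 20 counts on average per AT2 library in both assays. Predicted genes were left out. RefSeq sequences and coordinates are on GRCm38.p6.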

Additional observations from a re-analysis of the deposited data

Results flagged for a closer look

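Among the 6 groups of 4 LUAD libraries whose values varied, 1 held a library far from the others. LUAD footprint library 2 gave 0.0855 CPM of Lgi3, which is 1 count, while the other LUAD footprint libraries were at 0. About 1 group in 20 is singled out this way by chance, but that rate does not hold here. A group with all libraries but 1 at 0 is always singled out, and with a single count the value rests on 1 read.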

How the results depend on the processing

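In footprints and in RNA, all 4 genes stayed lower in LUAD under every alternative that gave a value, and the call was lost for Lpcat1 footprints alone (log2 fold change -2.79 to -1.44 with single libraries left out, and -1.68 with the TPM pseudocount of 0.1). With protein-coding transcripts only, Sftpb footprints did not pass the filter and Ctsh footprints per RNA passed the test at -1.96. With single libraries left out, footprints per RNA ran from -0.40 to 0.41 for Ctsh, and footprints over RNA within AT2 ran from -2.02 to -0.92 for Sftpb and from -1.56 to -0.57 for Lgi3. With the library set as a term, which was added after seeing the data, the within-AT2 value was -1.67 for Sftpb (adjusted p = 0.171) and 0.12 for Lpcat1 (adjusted p = 0.737). Counts of called genes moved more. In footprints, 1447 genes became 931 with the replicate number as a block, 944 and 611 on TPM with pseudocounts of 1 and 0.1, 3568 and 2853 in library sets 1 and 2 alone, 2873 with the set term, and 838 to 1894 with single libraries left out (903, 838 and 853 without LUAD libraries 2, 3 and 4). In RNA, 2575 became 4052 in set 1 alone and 1632 to 3357 with single libraries left out (1684 and 1632 without AT2 libraries 1 and 2). For footprints per RNA, 50 became 374 with DESeq2, 88 with the replicate block, 513 with the set term, and 11 to 418 with single libraries left out (418 without AT2 footprint library 1, 246 without AT2 RNA library 3). Surfactant list genes higher in footprints, 1 in the report, were 3 with DESeq2, 4 on all-transcript scaling, 0 with the replicate block, 8 and 3 in sets 1 and 2 alone, 4 with the set term, and 0 to 2 with single libraries left out. Those lower, 14, were 7 and 6 on TPM, 27 in set 1 alone and 24 with the set term. In RNA those higher, 4, were 7 on all-transcript scaling, 1 and 1 on TPM, 9 in set 1 alone, and 2 to 7 with single libraries left out. The cause of these changes was not tested. With scaling on all transcripts the median log2 fold change of all genes became 0.35 in footprints and 0.27 in RNA, against -0.02 and 0.04. The share of calls that were higher then became 68.6% in footprints against 44.5%, 70.3% in RNA against 51.3%, 8.82% in footprints per RNA against 38%, and 35.4% within AT2 against 50.5%. List genes on this scaling were 4 higher and 10 lower in footprints and 7 higher and 19 lower in RNA. No named list gene changed direction under an alternative. On TPM with either pseudocount the calls of Anxa7 in both assays, Gata6 in footprints, and Chka and Klf5 in RNA also missed the threshold, and Gata6 footprints did so on all-transcript scaling (adjusted p = 0.0504). The numbers do not pair the footprint libraries (r -0.39 to 0.47). The block changed the footprint calls of Anxa7, Lpcat3 and Gata6 (adjusted p = 0.0997, 0.0542 and 0.0619). It changed no call of the 4 genes in footprints, RNA, footprints per RNA or within AT2. AT2 libraries are shallower than LUAD libraries in both assays, which limits transcript shares and ORF calls there.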
